A study of Mus musculus with 2 samples.

Results

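The genes described here are 10 members of the fibroblast growth factor (FGF) pathway, taken by name from the 31053 genes counted: the ligands Fgf7, Fgf10 and Fgf18, the receptors Fgfr1 and Fgfr2, and the response genes Etv4, Etv5, Spry1, Spry2 and Spry4. They were measured by scRNA-Seq in fibro/adipogenic progenitors (FAPs), the interstitial mesenchymal cells of skeletal muscle, from limb muscles of 3-week-old C57BL/6 mice. Control mice (Bap1f/f) carried floxed Bap1 alleles without Cre. The other mice (Prx1-Cre;Bap1f/f) carried the same floxed alleles and a Cre driven by the Prx1 enhancer, which is active in the limb mesenchyme that gives rise to FAPs. Bap1 encodes a nuclear deubiquitinase that acts on histone H2A. FAPs were sorted as live cells negative for CD45, CD31 and Vcam1 and positive for Sca1. Each genotype was a single library, and the number of animals behind it is not given in the sources used here. No difference between genotypes has a replicate check, so no p-value is given, and every interval is a 95% interval for counting error only.

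The libraries are called by their labels, Bap1 WT for the control and Bap1 ΔMPC for the Cre-positive mice, and pairs of values are given in that order. They held 4103 and 4378 cells, 51015705 and 49540066 UMIs in all, and medians of 12232 and 11017.5 UMIs per cell. Only 5 cell barcodes occurred in both. Bap1 had 17.6 CPM (its UMIs per 1000000 UMIs summed over cells) in the WT-labelled library and 21.6 CPM in the ΔMPC-labelled library. Counts per gene from 3′ libraries do not tell whether a transcript held the deleted exons, so this value does not check the deletion, and directions below are those of the libraries as labelled. Markers of FAPs were present in both (Pdgfra at 347 and 298 CPM, Ly6a, which encodes Sca1, at 1640 and 2002 CPM). Of 6 immune markers, Ptprc, Adgre1 and Cd3e had no UMI in either library and the other 3 (Lyz2, C1qa and Cd68) summed to 6.55 and 14.7 CPM, each higher in the ΔMPC-labelled library. Of 6 muscle markers, Pax7, Myf5 and Myod1 had none and the other 3 (Acta1, Ckm and Vcam1) summed to 64.7 and 33.2 CPM, each lower in it. The largest part of that sum was Vcam1, at 37.6 and 20.5 CPM. Summed Schwann markers were at 19.5 and 66.5 CPM, mostly S100b at 16.8 and 63.7 CPM. Summed adipocyte markers were at 8.19 and 84.2 CPM, summed tendon markers at 30.8 and 103 CPM, and summed cycling markers at 32.8 and 60.4 CPM. Without cells with a UMI of Adipoq, Plin1, Cidec or Lep, the log2 ratio between the libraries was -1.18 for Spry1, as with them, and -1.13 against -1.15 for Etv4. Without cells with a UMI of a cycling marker these were -1.20 and -1.08. The part of the immune, muscle, Schwann and tendon differences in the values below was not tested.

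FAPs were divided by a score, the sum of Pi16, Sema3c, Anxa3 and Efemp1 per 10000 UMIs of a cell. Cells with a score of 25 or more are called Dpp4-type. They were 1050 of 4103 cells (25.6%, exact interval 24.3% to 27.0%) and 1251 of 4378 cells (28.6%, interval 27.2% to 29.9%). Dpp4 itself, which is not in the score, had 298 CPM in Dpp4-type cells and 56.5 CPM in other cells of the WT-labelled library, and 268 and 39.5 CPM in the ΔMPC-labelled library. Scores between 20 and 30 were held by 210 and 337 cells, so the boundary is not a gap between separate populations.

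FGFs are secreted proteins that bind receptor tyrosine kinases together with heparan sulfate. FGF7 and FGF10 come from mesenchyme and act chiefly on the epithelial splice form of FGFR2, while FGF18 acts on the mesenchymal splice forms of several receptors. Receptor activation drives the RAS/ERK cascade. ERK signalling raises transcription of the ETS factors Etv4 and Etv5 and of the Sprouty genes, whose products inhibit the cascade as a negative feedback. The same response genes also follow other receptor tyrosine kinases, and 3′ counts do not separate receptor splice forms.

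Spry1 and Spry2 encode closely related feedback inhibitors and differed most in their values among the Sprouty genes, so the 250 bases that lie upstream of their annotated starts are shown. The sequences are from RefSeq (GRCm38.p6, the assembly that corresponds to the authors' mm10), on the strand of the gene. Capitals mark the ETS core GGAA, the letters that Etv4 and Etv5 proteins bind, which was searched on both strands.
Spry1, chr3:37639697-37639946, plus strand: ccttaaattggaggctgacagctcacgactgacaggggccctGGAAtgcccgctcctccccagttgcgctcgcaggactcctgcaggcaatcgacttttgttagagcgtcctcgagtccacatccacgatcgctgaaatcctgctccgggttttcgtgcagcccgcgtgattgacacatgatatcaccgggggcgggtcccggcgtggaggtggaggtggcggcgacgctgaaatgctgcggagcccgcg
Spry2, chr14:105896820-105897069, minus strand: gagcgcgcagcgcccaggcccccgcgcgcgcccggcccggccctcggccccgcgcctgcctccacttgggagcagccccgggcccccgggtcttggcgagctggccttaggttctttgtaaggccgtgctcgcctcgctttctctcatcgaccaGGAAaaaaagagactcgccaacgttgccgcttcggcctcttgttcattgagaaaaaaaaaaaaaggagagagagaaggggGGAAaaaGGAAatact
The core stood 1 time in the Spry1 window and 3 times in the Spry2 window. It is a common word, present in 93.4% of 32851 RefSeq windows of this length with a median of 3 per window. The longer ETS letters CCGGAA (12.0% of windows), the AP-1 site TGACTCA (4.46%), the CRE TGACGTCA (1.55%) and the Egr1 letters GCGGGGGCG (2.57%) were in neither window. The Spry1 window belongs to 1 of 3 annotated transcripts. The Etv5 window (chr16:22439571-22439820, minus strand) held none of these letters, the ETS core included. Of the 10 genes, 7 had such a window, and Etv4 and Spry4 were not among them.

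Of the 10 genes, 2 differed over 2-fold between the libraries over all cells, Etv4 and Spry1, and both were lower in the ΔMPC-labelled library. Among all 14729 genes with 20 or more UMIs, 12.0% differed over 2-fold in either direction and 5.37% were lower by that much. The median log2 ratio of the 10 genes was -0.11, against 0.10 over all genes tested. The ligands and receptors lay close to each other in both libraries, while all 5 response genes were at least slightly lower, with a median log2 ratio of -0.79. Over all cells, a lower level in cells of one kind and fewer cells of that kind cannot be told apart, so the values within Dpp4-type and other cells follow for each gene.

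**Figure D1:**
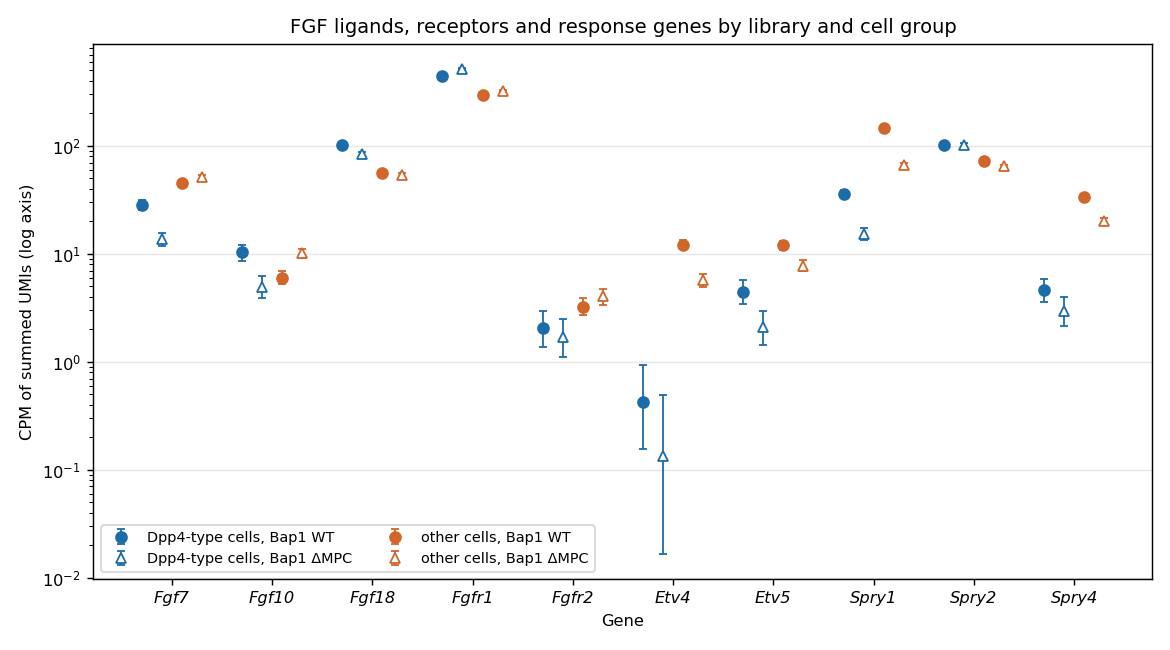
CPM of summed UMIs on a log axis for the 10 genes in Dpp4-type cells (blue) and other cells (orange) of the libraries labelled WT (filled circles) and ΔMPC (open triangles), with 95% counting intervals. Spry1 was lower in the ΔMPC-labelled library in both groups of cells, while Fgf7 and Fgf10 were lower in it in Dpp4-type cells and higher in other cells.

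Among the ligands, Fgf7, which encodes keratinocyte growth factor, showed no detectable difference over all cells and opposite differences within the groups. Over all cells it had 40.6 CPM in the WT-labelled library and 40.1 CPM in the ΔMPC-labelled library, a ratio of 0.987 (interval 0.927 to 1.05). In Dpp4-type cells it had 28.4 and 13.7 CPM, which is 2.08-fold lower (interval 1.75 to 2.47). A UMI of Fgf7 was found in 28.5% of Dpp4-type cells in the WT-labelled library and in 12.3% in the ΔMPC-labelled library, or in 12.8% and 6.16% after each cell was thinned to 5000 UMIs. In other cells the order turned, with 45.3 and 51.3 CPM, a ratio of 1.13 (interval 1.06 to 1.21). That is a log2 ratio of 0.18, close to the median of 0.11 over all genes tested in other cells. The log2 ratio in Dpp4-type cells minus that in other cells was -1.23 (interval -1.50 to -0.97).

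Fgf10, a ligand with a role in adipose and limb development, had the same arrangement and fewer counts. It reached 7.21 and 8.56 CPM over all cells, from 368 and 424 UMIs. In Dpp4-type cells it had 10.3 and 4.94 CPM, from 145 and 73 UMIs, which is 2.08-fold lower in the ΔMPC-labelled library (interval 1.56 to 2.79). In other cells it had 6.04 and 10.1 CPM, which is 1.67-fold higher (interval 1.41 to 1.98). The group of cells with the higher Fgf10 level was thus the Dpp4-type in one library and the other cells in the other. The difference of the log2 ratios was -1.80 (interval -2.27 to -1.32). In sums that gave every cell equal weight, the log2 ratio in Dpp4-type cells was -0.94, and with a score cut of 15 it was -0.85, both short of 2-fold. For Fgf7, cells thinned to 5000 UMIs gave -0.99.

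Fgf18, a ligand known from bone and cartilage growth, changed little. It had 68.7 and 62.8 CPM over all cells, 101 and 83.3 CPM in Dpp4-type cells, and 56.2 and 54.1 CPM in other cells. The largest of these differences was in Dpp4-type cells, 1.21-fold lower in the ΔMPC-labelled library (interval 1.12 to 1.31). In both libraries Dpp4-type cells had the higher level, by 1.80-fold (interval 1.68 to 1.93) and 1.54-fold (interval 1.43 to 1.66).

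The levels of the ligands along the score show where the libraries diverged. Fgf7 in the WT-labelled library was flat up to a score of 25, at 45.8, 44.5 and 45.0 CPM, and then fell to 32.2 and 26.2 CPM. Fgf7 in the ΔMPC-labelled library fell at every step, from 59.2 to 43.8, 23.9, 17.2 and 9.79 CPM. Fgf10 in the WT-labelled library rose from the lowest scores to 6.64, 9.96 and 13.1 CPM in the next 3 steps and stood at 8.57 CPM above 50. Fgf10 in the ΔMPC-labelled library fell along all 5 steps from 10.7 to 3.69 CPM. These steps hold between 291 and 2030 cells each, and neighbouring Fgf10 intervals overlap in several places.

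**Figure D2:**
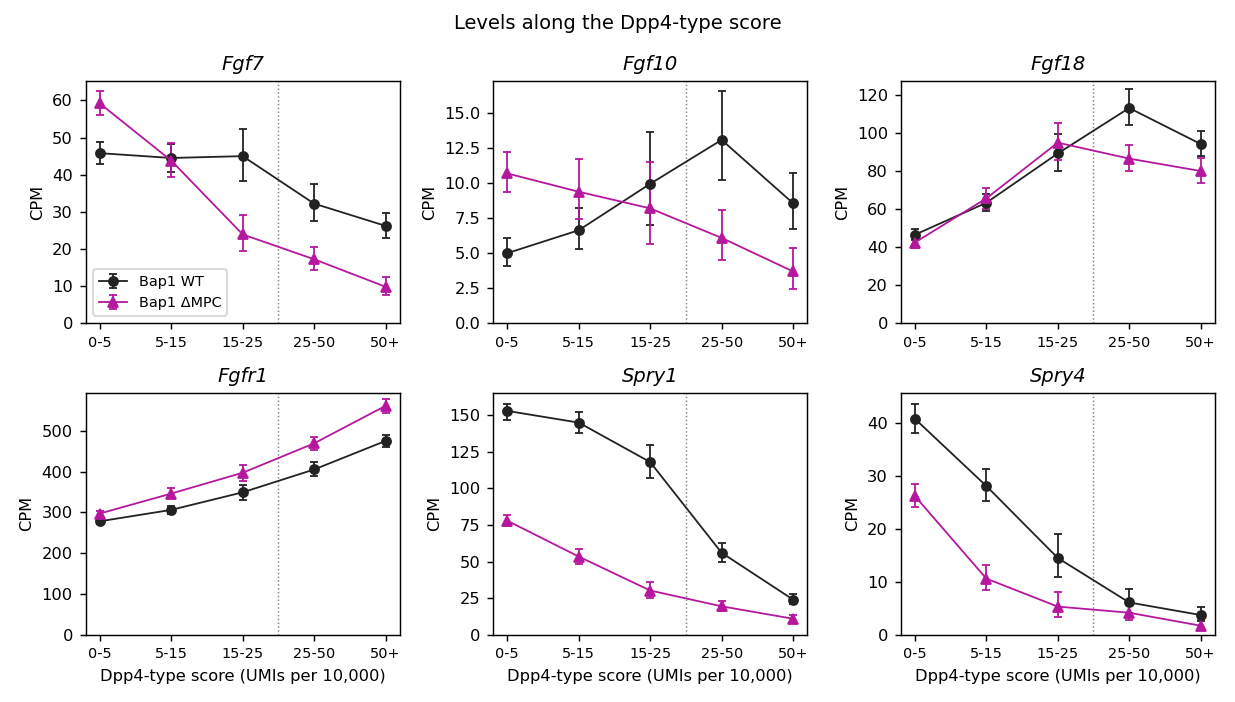
CPM of 6 of the genes in 5 steps of the Dpp4-type score (UMIs of Pi16, Sema3c, Anxa3 and Efemp1 per 10000), for the libraries labelled WT (black circles) and ΔMPC (magenta triangles), with 95% counting intervals and a dotted line at the cut of 25. Fgf7 and Fgf10 crossed between the libraries along the score, Fgfr1 rose in both, and Spry1 was lower in the ΔMPC-labelled library at every step.

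Of the receptors, Fgfr1, the main FGF receptor of mesenchymal cells, was found in nearly every cell. It had 337 and 378 CPM over all cells and a UMI in 94.0% and 93.7% of them (77.4% and 80.0% after thinning). In Dpp4-type cells it had 449 and 513 CPM, and in other cells 295 and 321 CPM. The ΔMPC-labelled library was higher in each case, by 1.14-fold (interval 1.10 to 1.18) and 1.09-fold (interval 1.06 to 1.12). In other cells that is a log2 ratio of 0.12, close to the median of 0.11 over all genes tested there. It ranged from 0.01 to 0.16 under other settings of the processing. In Dpp4-type cells it was 0.19, against a median of 0.07. Within a cluster of Dpp4-type cells found in both libraries, described below, Fgfr1 was lower in the ΔMPC-labelled library. The differences between libraries are small beside that between the groups of cells. Dpp4-type cells were 1.52-fold (interval 1.48 to 1.57) and 1.60-fold (interval 1.55 to 1.65) above the others. Along the score Fgfr1 rose at every step in both libraries, from 278 to 475 CPM and from 297 to 561 CPM.

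Fgfr2, the receptor whose epithelial form binds FGF7 and FGF10, was near the detection limit. It had 149 and 165 UMIs, or 2.92 and 3.33 CPM, and a UMI in 3.14% and 3.11% of cells (1.46% and 1.63% after thinning). Acta1 of myofibers and Hbb-bs of erythroid cells, genes that FAPs should lack, had a UMI in 12.5% and 6.17% of cells of the WT-labelled library and in 6.74% and 8.34% of cells of the ΔMPC-labelled library. After thinning these shares were 6.35% and 2.76%, and 3.96% and 4.01%. The share for Fgfr2 is thus under those of Acta1 and Hbb-bs, which are called background genes below. The source of their UMIs was not tested, and a single cell of the WT-labelled library held 989 UMIs of Hbb-bs. No difference of Fgfr2 between the libraries was detectable at this depth, with ratios of 0.824 (interval 0.463 to 1.46) in Dpp4-type cells and 1.24 (interval 0.963 to 1.59) in other cells. Its level was lower in Dpp4-type than in other cells, by 1.58-fold (interval 1.05 to 2.46) and 2.38-fold (interval 1.55 to 3.80). These ratios rest on 29 and 25 UMIs in Dpp4-type cells and carry the same limit.

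Among the response genes, Spry1 differed most evenly. It had 116 CPM from 5920 UMIs in the WT-labelled library and 51.2 CPM from 2534 UMIs in the ΔMPC-labelled library, which is 2.27-fold lower (interval 2.17 to 2.38). A UMI was found in 55.3% and 29.9% of cells, and in 37.5% and 18.2% after each cell was thinned to 5000 UMIs. Dpp4-type cells had 35.9 and 15.4 CPM, a 2.34-fold lower level (interval 1.99 to 2.74). Other cells had 147 and 66.3 CPM, a 2.21-fold lower level (interval 2.11 to 2.32). The log2 ratios of the 2 groups differed by -0.08, with an interval from -0.32 to 0.16 that includes 0. In every step of the score the ΔMPC-labelled library was lower, with 153 against 77.9 CPM at the lowest scores and 24.0 against 10.9 CPM at the highest.

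The Sprouty genes did not move as a family. Spry2 had 80.1 and 75.7 CPM over all cells, a ratio of 0.945 (interval 0.904 to 0.988). In Dpp4-type cells it had 101 and 102 CPM, a ratio of 1.01 (interval 0.940 to 1.09). In other cells it had 72.1 and 64.5 CPM. Spry4 lay between the 2 others, with 25.8 and 14.9 CPM over all cells, 1.73-fold lower in the ΔMPC-labelled library (interval 1.58 to 1.90). Its Dpp4-type level was low in both libraries, at 4.60 and 2.98 CPM from 65 and 44 UMIs, and other cells had 34.0 and 20.0 CPM.

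Etv4 was the sparsest response gene and the one most tied to a group of cells. It had 455 UMIs (8.92 CPM) in the WT-labelled library and 199 UMIs (4.02 CPM) in the ΔMPC-labelled library, 2.22-fold lower (interval 1.88 to 2.64). Dpp4-type cells held 6 and 2 of these UMIs, too few for a ratio between the libraries. Other cells had 12.2 and 5.67 CPM, 2.15-fold lower (interval 1.81 to 2.55). A UMI of Etv4 was found in 7.38% and 3.33% of all cells (3.87% and 1.68% after thinning), and in 0.571% and 0.160% of Dpp4-type cells. In the ΔMPC-labelled library the share over all cells lies under those of Acta1 and Hbb-bs. Unlike theirs, it was concentrated in other cells, with 2.33% after thinning against 0.0832% in Dpp4-type cells, where Acta1 had 3.74% and 4.49%.

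Etv5 had 9.94 and 6.08 CPM over all cells, 1.64-fold lower in the ΔMPC-labelled library (interval 1.42 to 1.89). After thinning, Etv5 had a UMI in 4.59% and 3.00% of all cells, the second under Acta1 (3.96%) and Hbb-bs (4.01%) of that library. In Dpp4-type cells it had 4.46 and 2.10 CPM, from 63 and 31 UMIs, 2.13-fold lower (interval 1.36 to 3.38). In other cells it had 12.0 and 7.76 CPM, 1.55-fold lower (interval 1.33 to 1.81). The groups' log2 ratios differed by -0.46, with an interval from -1.11 to 0.20 that includes 0.

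Several of these genes were as sparse in Dpp4-type cells as genes that FAPs should lack. After thinning, Acta1 and Hbb-bs had a UMI in 4.23% and 2.66% of Dpp4-type cells of the WT-labelled library and in 4.49% and 3.66% of those of the ΔMPC-labelled library. Fgf10 had 4.82% and 2.33% there, Etv5 2.26% and 1.08%, and Spry4 1.97% and 1.75%. Apart from Fgf10 in the WT-labelled library, these shares lie under both background genes and are not read as expression in Dpp4-type cells. Over all cells of the ΔMPC-labelled library, Fgf10 had 3.93%, just under Acta1 at 3.96% and Hbb-bs at 4.01%.

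**Figure D3:**
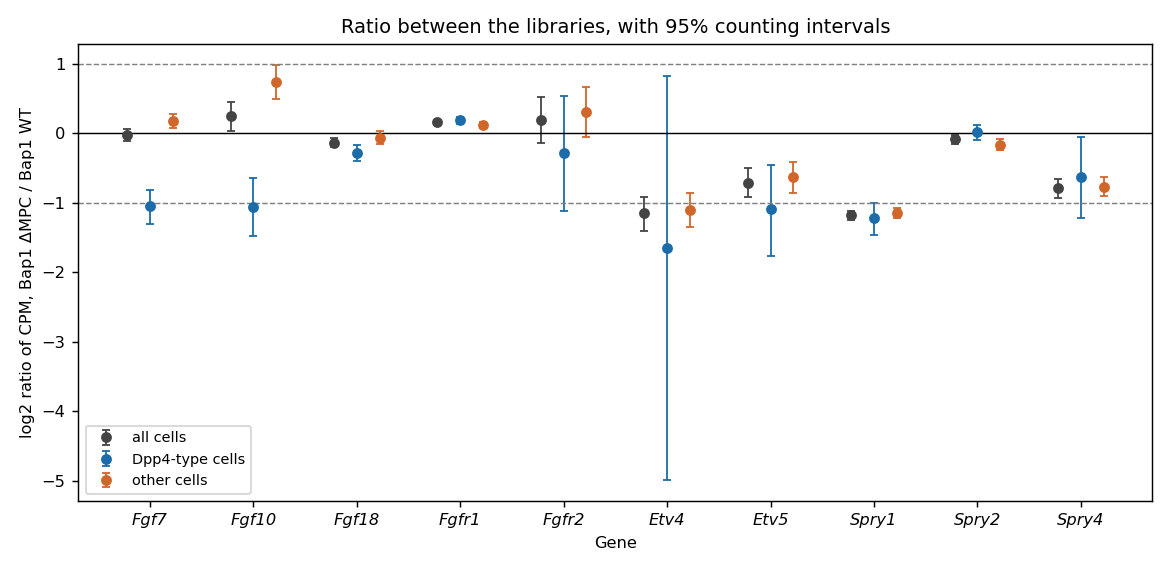
Log2 ratio of CPM, ΔMPC-labelled library over WT-labelled library, for the 10 genes in all cells (grey), Dpp4-type cells (blue) and other cells (orange), with 95% counting intervals and dashed lines at 2-fold. Spry1 lay below -1 in all 3 sets of cells and Spry2 near 0, and the blue and orange points of Fgf7 and Fgf10 lay on opposite sides of 0. The Etv4 interval in Dpp4-type cells rests on 8 UMIs.

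Within Dpp4-type cells, 4 of the 9 genes with 20 or more UMIs were over 2-fold lower in the ΔMPC-labelled library (Fgf7, Fgf10, Etv5 and Spry1) and none was higher. Over all 12517 genes tested there, 8.85% passed 2-fold in either direction and 4.51% were lower. The share of cells lay under both background genes for Fgf10 in the ΔMPC-labelled library and for Etv5 in both libraries. The Etv5 ratio is thus not read as a change of expression. The intervals of all 4 except Spry1 reach well below 2-fold, and that of Spry1 reaches 1.99-fold. Within other cells 2 of 10 were lower (Etv4 and Spry1) and none higher, against 12.5% of 14271 genes in either direction and 5.25% lower.

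Dpp4-type and other cells differed in these genes within each library. In the WT-labelled library, 4 of 10 genes were over 2-fold lower in Dpp4-type cells and none higher, against 17.1% of 13582 genes in either direction and 11.4% lower. These were Etv4, Etv5, Spry1 and Spry4, with levels 28.6-fold (interval 13.0 to 78.4), 2.70-fold (interval 2.07 to 3.57), 4.08-fold (interval 3.73 to 4.48) and 7.37-fold lower (interval 5.74 to 9.61). In the ΔMPC-labelled library, 7 of 10 were lower and none higher, against 17.0% of 13680 genes in either direction and 12.3% lower. The same 4 response genes were among them, with Spry1 at 4.32-fold (interval 3.76 to 4.97) and Spry4 at 6.70-fold lower (interval 4.94 to 9.30). Fgf7, Fgf10 and Fgfr2 were the other 3, at 3.75-fold, 2.04-fold and 2.38-fold lower. The Fgfr2 value rests on 25 UMIs in Dpp4-type cells, with a share of cells under the background genes. The Fgf10 value fell short of 2-fold, at log2 ratios between -0.98 and -0.87, under both other scalings, with equal weight per cell and with a score cut of 15. Spry2 went the opposite way to Spry1 and Spry4 and was higher in Dpp4-type cells, by 1.40-fold (interval 1.31 to 1.49) and 1.58-fold (interval 1.48 to 1.69).

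Response genes detected together in a cell were rarer in the ΔMPC-labelled library. After thinning to 5000 UMIs, which left out 120 and 210 shallower cells, none of the 5 response genes had a UMI in 1557 of 3983 cells (39.1%, interval 37.6% to 40.6%) and in 2275 of 4168 cells (54.6%, interval 53.1% to 56.1%). At least 3 of them had a UMI in 4.27% of cells (interval 3.66% to 4.94%) and in 1.58% (interval 1.23% to 2.01%). In Dpp4-type cells that share was 6 of 1016 cells and 0 of 1202 cells. Co-detection follows the level of each gene, so it adds no separate evidence.

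The cells were also clustered without any of 47 FGF pathway genes, to see in which cells the 10 genes lay. The 10 clusters were mostly of one library each, so a cluster and a library often cannot be told apart. Levels are given for the 11 combinations of library and cluster with 100 or more cells, as a description. The cluster with the leading genes Meox1 and Hmcn1 held 683 cells of the WT-labelled library and 35 of the ΔMPC-labelled library. It had the highest levels of 4 response genes: Etv4 at 50.9 CPM (interval 46.1 to 56.2), Etv5 at 24.0 CPM, Spry4 at 77.0 CPM and Spry1 at 206 CPM. Etv4 was at most 2.36 CPM in the other 4 groups of that library. It reached 7.05 CPM in the cluster led by Emb and Spon1 (1334 cells labelled ΔMPC) and 8.93 CPM in the cluster led by Col8a1 and Comp, which also had the tendon genes Chad and Tnmd among its leading genes (426 cells labelled ΔMPC).

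That Meox1 and Hmcn1 cluster bears directly on the Etv4 difference. It held 404 of the 455 Etv4 UMIs (88.8%) of the WT-labelled library. Without it, Etv4 had 1.18 CPM in the WT-labelled library and 3.58 CPM in the ΔMPC-labelled library, so the direction turned. Leaving it out takes 683 cells from the WT-labelled library. From the ΔMPC-labelled library it takes 35 cells, with 11.6% of the Etv4 UMIs. The removal is unequal, so the turned direction does not compare like cells. Spry4 without the cluster had 16.4 and 14.6 CPM, and Etv5 had 7.36 and 6.04 CPM, both closer than with it. Spry1 had 99.6 and 50.4 CPM without it, a log2 ratio of -0.98. A simpler selection gave a like picture for Etv4. Cells with a UMI of both Hmcn1 and Meox1 were 565 (13.8%) and 82 (1.87%). Etv4 had 42.2 and 27.8 CPM inside them, and 3.55 and 3.56 CPM outside them. Hmcn1 itself had 46.0 and 12.7 CPM, so this selection takes fewer cells from the ΔMPC-labelled library whatever else differs.

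**Figure D4:**
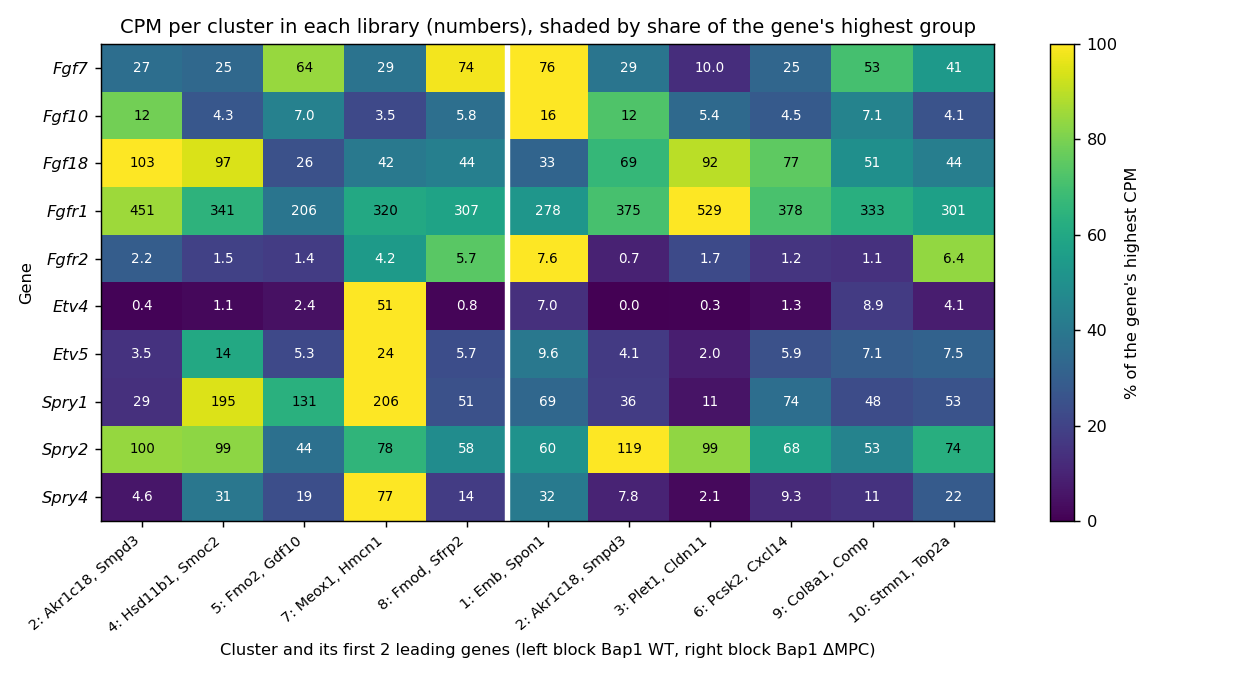
CPM of the 10 genes (numbers in the cells) in the 11 combinations of library and cluster with 100 or more cells, shaded by percent of each gene's highest value. Columns left of the white line are from the WT-labelled library. Etv4, Etv5, Spry1 and Spry4 were highest in the cluster led by Meox1 and Hmcn1, where Etv4 reached 50.9 CPM, and Fgfr1 and Spry1 were at 529 and 11.1 CPM in the cluster led by Plet1 and Cldn11.

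Spry1 differed between clusters within each library as well as between libraries. It ranged from 28.7 CPM (cluster led by Akr1c18 and Smpd3) to 206 CPM in the WT-labelled library, with 195 CPM in the cluster led by Hsd11b1 and Smoc2. It ranged from 11.1 to 74.1 CPM in the ΔMPC-labelled library. The highest group of the ΔMPC-labelled library thus lay above 2 of the 5 groups of the WT-labelled library and below the other 3.

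Dpp4-type cells of the ΔMPC-labelled library fell largely into 2 clusters with unlike levels of Fgf7, Fgf10 and Spry1. The cluster led by Akr1c18 and Smpd3, which also had Pi16 among its leading genes, held 916 of the 1050 Dpp4-type cells labelled WT (87.2%) and 185 of the 1251 labelled ΔMPC (14.8%). The cluster led by Plet1 and Cldn11 held 926 of the Dpp4-type cells labelled ΔMPC (74.0%) and 4 of those labelled WT. Among these Dpp4-type cells, Spry1 had 27.1 CPM (interval 24.3 to 30.2) in the 916 cells and 31.0 CPM (interval 24.2 to 39.2) in the 185 cells. In the 926 cells it had 9.56 CPM (interval 7.81 to 11.6). Fgf7 had 27.2 CPM in the 916 cells, 29.3 CPM in the 185 cells and 8.09 CPM (interval 6.49 to 9.96) in the 926 cells. Fgf10 came to 137 UMIs in the 916 cells (interval 9.24 to 13.0 CPM), to 11.5 CPM (interval 7.53 to 16.9) in the 185 cells and to 3.68 CPM from 40 UMIs in the 926 cells. For these 3 genes the intervals of both libraries overlapped in the shared cluster, and the cells of the Plet1 cluster lay below both. Spry2 had 104, 120 and 105 CPM in the same order and showed no such step. Fgf18 and Fgfr1 did differ between the libraries within the shared cluster. Fgf18 had 102 CPM (interval 96.9 to 108) in the 916 cells and 70.1 CPM (interval 59.6 to 81.9) in the 185 cells. Fgfr1 had 459 CPM (interval 448 to 471) and 377 CPM (interval 352 to 404), opposite to its direction over all Dpp4-type cells. In the 926 cells Fgf18 had 87.1 CPM and Fgfr1 553 CPM. The clusters were made from expression in these same cells, so the levels by cluster are a description.

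Fgf7 was highest in the cluster led by Emb and Spon1 (75.6 CPM, labelled ΔMPC) and in the clusters led by Fmod and Sfrp2 (74.2 CPM) and by Fmo2 and Gdf10 (64.0 CPM, both labelled WT). Fgf10 was also highest in the cluster led by Emb and Spon1, at 15.9 CPM. Fgfr2 reached 7.63 CPM there, its highest level, from 106 UMIs. The cluster has Fabp4, a fatty acid binding protein of adipocytes, among its leading genes.

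Over the 11 combinations, Pearson's r of log2(CPM + 5) describes which genes had a like pattern. These points share libraries and depth, there are few of them, and the values carry no test. Spry4 and Etv5 were alike (r = 0.95), as were Spry1 and Spry4 (0.86) and Spry1 and Etv5 (0.84). Fgfr1 and Fgf18 were alike (0.88), and Fgf7 ran opposite to Fgfr1 (-0.82). Spry2 was near Fgf18 (0.78) and Fgfr1 (0.75) and not near Spry1 (-0.32) or Spry4 (-0.28). Among 7680 genes with 20 or more CPM in some combination, the 3 most like Spry1 were Jam3 (0.976), Ltbp4 (0.959) and Apbb1ip (0.956). For Spry4 they were Colec12 (0.975), Map3k5 (0.952) and Etv5 (0.945), and for Etv5 they were Tril (0.957), Spred1 (0.956) and Rnf182 (0.946). For Etv4 they were Lbhd2 (0.977), Etl4 (0.961) and Cnn3 (0.959), of which Lbhd2 is a leading gene of the Meox1 and Hmcn1 cluster. Fgf7 was most like Svil (0.952), Ccdc80 (0.907) and Sfrp1 (0.894), and Fgf10 most like Nfkbiz (0.897), Aff1 (0.850) and Efemp2 (0.838). Islr (0.932), Acyp1 (0.927) and Igdcc4 (0.912) were nearest to Fgf18, and Cyb5r4 (0.943), Zeb1 (0.941) and St3gal2 (0.934) to Fgfr1. Lama4 (0.918), As3mt (0.912) and Basp1 (0.907) were nearest to Spry2, and Snx5 (0.840), Prps1 (0.822) and Zfp395 (0.809) to the sparse Fgfr2.

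The rest of the pathway was counted from lists of its other genes. Of 11 other ERK response genes, all with 20 or more UMIs, 1 was over 2-fold lower over all cells and none higher, a share near the 12.0% of all genes tested that passed in either direction. Of the 11, 7 were below and 4 above the WT-labelled library. The gene over 2-fold was Etv1, the third ETS factor of the Etv4 and Etv5 group, with 21.1 and 5.95 CPM, 3.54-fold lower in the ΔMPC-labelled library (interval 3.11 to 4.04). Etv1 had 5.31 and 2.03 CPM in Dpp4-type cells, and in other cells it was lower, at 27.1 and 7.62 CPM. After thinning, it had a UMI in 2.07% and 0.998% of Dpp4-type cells, under both background genes. Its ratio there is thus not read as a change of expression. Over all cells the thinned shares were 9.29% and 3.19%, the second under Acta1 (3.96%) and Hbb-bs (4.01%) of that library. Dusp6, an ERK phosphatase, had 17.4 and 9.77 CPM, 1.79-fold lower (interval 1.60 to 2.00). Spred1, an inhibitor of the RAS/ERK cascade, had 99.4 and 82.5 CPM, 1.21-fold lower (interval 1.16 to 1.26). In the other direction, Dusp5, a further phosphatase of ERK, had 9.98 and 14.5 CPM, 1.46-fold higher (interval 1.30 to 1.63). Dusp4 (10 and 19 UMIs) and Spry3 (13 and 22 UMIs) had ratios of 1.96 and 1.74 with intervals that include 1. These 3 are named after their values were seen. The list had a median log2 ratio of -0.27.

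Of 19 other FGF ligands, 8 had 20 or more UMIs, and of these 2 were over 2-fold higher and none lower, against 12.0% of all genes tested in either direction. With 8 genes this count is too small to be read against that share. Fgf13, whose product stays inside the cell and binds sodium channels, had 29 and 149 UMIs, 5.29-fold higher in the ΔMPC-labelled library (interval 3.54 to 8.17). After thinning, a UMI of Fgf13 was found in 0.251% and 1.32% of cells, under the background genes Acta1 and Hbb-bs in both libraries. The other was Fgf21, with 10 and 21 UMIs and an interval of the ratio from 0.975 to 5.14, named here after its value was seen. Fgf16 had 11.8 and 23.0 CPM over all cells, a ratio of 1.96, and 11.6 and 29.1 CPM in Dpp4-type cells, 2.50-fold higher (interval 2.08 to 3.01). Fgf2, a ligand of broad receptor range, had 33.4 and 45.4 CPM, 1.36-fold higher (interval 1.28 to 1.45).

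Of 7 other receptors and binding proteins, 4 had 20 or more UMIs, and 1 was over 2-fold higher and none lower, against the same 12.0%, which 4 genes are too few to be read against. Fgfrl1, a receptor that lacks the kinase domain, had 10.2 and 21.4 CPM, 2.10-fold higher in the ΔMPC-labelled library (interval 1.89 to 2.34). Its difference lay mainly in other cells, with 12.0 and 27.1 CPM, against 5.53 and 7.92 CPM in Dpp4-type cells. Fgfr3 had 52 and 47 UMIs and no detectable difference (ratio 0.931, interval 0.614 to 1.41). None of 23 adaptors and cascade genes passed 2-fold in either direction, and their median log2 ratio was 0.22. None of 13 immediate early genes, which answer ERK and tissue dissociation within minutes, passed 2-fold, and their median was 0.20.

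**Figure D5:**
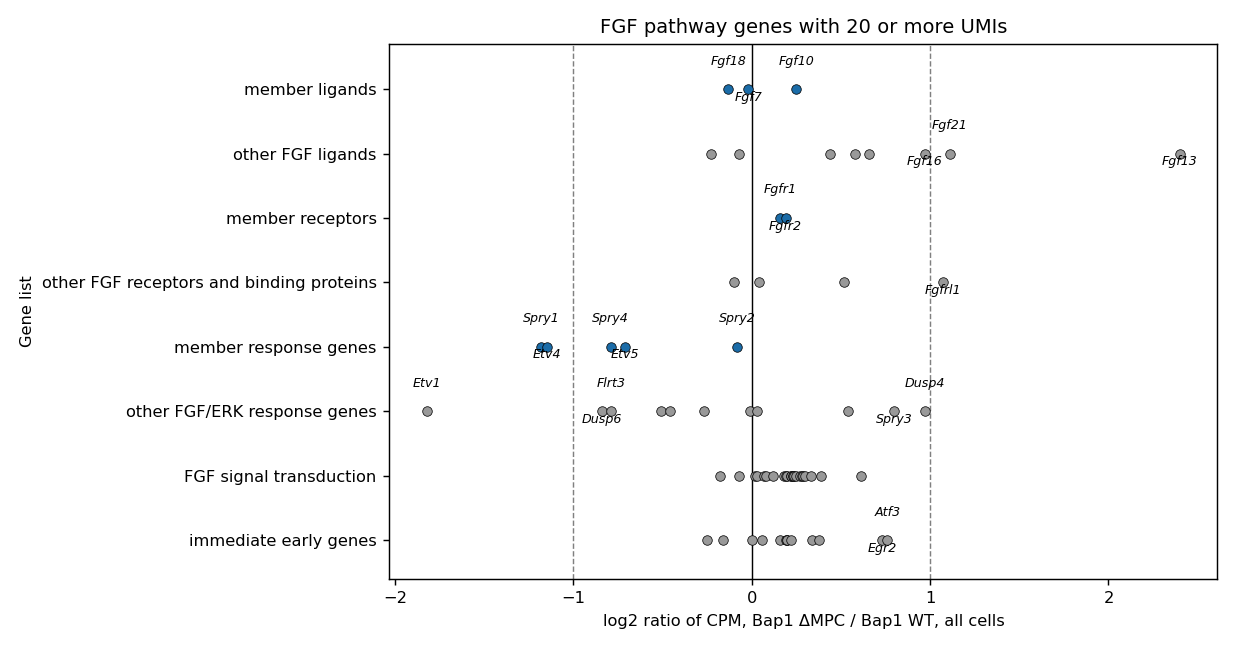
Log2 ratio of CPM over all cells, ΔMPC-labelled library over WT-labelled library, for genes of the FGF pathway with 20 or more UMIs, one row per list (blue, the 10 genes; grey, other genes), with dashed lines at 2-fold. Etv1, Spry1 and Etv4 lay below -1, Fgf13, Fgf21 and Fgfrl1 above 1, and no cascade or immediate early gene passed either line.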

How the data were processed

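The authors sorted FAPs from limb muscle of each genotype, prepared 10x Genomics 3′ v3.1 libraries and, per the labels' processing notes, used Cell Ranger 3.1.0, Seurat 3.2.1 and the mm10 build. The deposited values are raw UMI counts per gene and cell, after the authors' filters on quality, doublets and cells that are not FAPs. Each deposited cell had 1501 to 4998 detected genes and at most 5.00% mitochondrial UMIs, and all 8481 cells were used. No further doublet caller was run.

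The 10 genes, the score and all lists were chosen with earlier results of these data known. UMIs were summed over cells of a group and divided by the group's total (CPM). Exact 95% intervals of CPM are Poisson, of ratios conditional binomial, and of shares Clopper-Pearson. Intervals of a difference of log2 ratios are approximate. A gene entered with 20 or more UMIs in both groups together, and was counted as different at over 2-fold. A count of 0 was set to a floor of 3 counts for a ratio. Only differences between genotypes that exceed counting error can be described, since there is 1 library per genotype and the spread between mice is unknown. Shares of cells with a UMI are given as counted and after each cell was thinned to 5000 UMIs. Clusters came from 5000 variable genes, 8 principal components, 20 neighbors and Leiden resolution 0.5 (scanpy 1.11.5, leidenalg 0.10.2), without 47 FGF pathway genes. The text names the 10 genes, other FGF genes over 2-fold with 100 or more UMIs, Fgf2, Fgfr3, Fgfrl1, Dusp6 and Spred1, and the 3 genes most like each of the 10. Fgf16 was named by its value in Dpp4-type cells. Fgf21, Dusp4, Dusp5, Spry3, Flrt2, Flrt3 and Il17rd were named after their values were seen. Alternatives changed the scaling (edgeR 4.0.16 TMM, which ran no test), cell weights, depth, score cut, fold, minimum of UMIs and the cells used. Ratios and intervals were tested on simulated data. The scripts ran under Python 3.11.15 with scipy 1.17.1, and under R 4.3.3.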

Additional observations from a re-analysis of the deposited data

Results flagged for a closer look

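Fgf7 and Fgf10 stood out because their differences between the libraries had opposite directions in the 2 groups of cells. The log2 ratio of Fgf7 was -1.05 in Dpp4-type cells and 0.18 in other cells. The median over all 14271 genes tested in other cells was 0.11, and TMM scaling moved ratios there by -0.11. Under the alternatives the Fgf7 value in other cells ranged from 0.04 to 0.28, so its direction there is not firm. The log2 ratio of Fgf10 was -1.06 in Dpp4-type cells and 0.74 in other cells. Of the 351 Fgf10 UMIs in other cells labelled ΔMPC, 219 came from the cluster led by Emb and Spon1. The intervals of the differences, given with the ligands, cover counting error only. Whether the differences exceed the spread between mice was not tested, since each genotype had 1 library.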

How the results depend on the processing

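No paired analysis was possible because only 1 library was made of each genotype, and for the same reason no replicate could be left out. Over all cells, 2 of the 10 genes passed 2-fold between the libraries, against 0 at 3-fold and 4 at 1.5-fold. In Dpp4-type cells it was 4, against 0 at 3-fold. In other cells it was 2, against 0 at 3-fold and 5 at 1.5-fold. Between Dpp4-type and other cells in the WT-labelled library it was 4, against 9 at 1.5-fold. The count of 7 in the ΔMPC-labelled library stayed within 1.5 times under all alternatives run. Etv4 depended on which cells were used, in 2 alternatives that were added after the data were seen. Without the cluster led by Meox1 and Hmcn1 its log2 ratio was 1.60 over all cells and 1.70 in other cells, and without cells with a UMI of both genes it was 0.00 over all cells. The counts over all cells and in other cells were then 1 in each case. Without cells with both genes the gene counted was Spry1. Without the cluster it was Etv4, now higher in the ΔMPC-labelled library, and Spry1 was just short of 2-fold. Both removals took cells mostly from the WT-labelled library. The log2 ratios of Spry1 ranged from -1.28 to -0.98 over all cells and from -1.64 to -1.10 in Dpp4-type cells. Those of Spry4 over all cells ranged from -0.89 to -0.17 and those of Etv5 from -0.81 to -0.28, nearest to 0 without that cluster. TMM scaling moved all ratios over all cells by -0.10 and those in other cells by -0.11. Of 570 values for single genes under alternatives, 494 stayed within their counting interval, 73 left it, and 3 that had been over 2-fold, all of Etv4, no longer had their sign. Values near 0 also turned within their intervals: Fgfr2 was -0.08 over all cells and -0.01 in other cells without cells with adipocyte UMIs, and Spry2 in Dpp4-type cells ranged from -0.06 to 0.02. Depth limited Fgfr2 throughout, and Etv4 in Dpp4-type cells.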
